A study of Mus musculus with 16 samples.

Results

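Small RNAs were compared between p73 knockout (KO) and wild-type (WT) mouse tracheal epithelial cultures on day 7 at the air-liquid interface. The members are the 4 day 7 libraries of the series' 16, which hold KO replicates 2 and 3 and WT replicates 2 and 3, and every small RNA with a value in them: 321 of the 1264 kept in the deposited table. Of these 321, 180 were annotated as miRNAs, 115 as small nucleolar RNAs (snoRNAs), 14 as ribosomal RNAs, 5 as piRNAs, 5 as small nuclear RNAs and 2 as predicted miRNAs. The other 943 were blank at day 7 and could not be compared there. The KO cultures came from mice that lack p73 in the whole animal and the WT cultures from wild-type mice. Both were primary tracheal epithelial cells grown on permeable membranes and then exposed to air, and the labels list no further allele or agent. The series also holds days 0, 4 and 14, with 2 libraries for each genotype and day.

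p73 belongs with p53 and p63 to 1 family of transcription factors, and its TAp73 form is known to regulate the programme by which airway progenitors become multiciliated cells. A miRNA is cut from a hairpin precursor and represses mRNAs that pair with its seed, the bases 2 to 8 counted from its 5′ end. The miR-34 and miR-449 families share a seed and are known in mouse multiciliated cells, where they lower the basal body inhibitor Ccp110. snoRNAs are mostly processed from introns of host genes and guide chemical modification of ribosomal RNA.

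The day 7 libraries held 707717 reads (KO replicate 2), 1035759 reads (KO replicate 3), 996101 reads (WT replicate 2) and 677569 reads (WT replicate 3), recovered from the normalised values. Loss of p73 could not be verified from these libraries, since its mRNA is no small RNA. Across the 321 small RNAs, log2 values correlated at r = 0.958 between the KO libraries and 0.983 between the WT libraries, and at 0.958 to 0.969 between a KO and a WT library. The epithelial marker miR-205-5p had 15176 and 12398 in the KO libraries, against 14137 and 9983 in the WT libraries. Of the fibroblast and smooth muscle markers, 1 of 8 (miR-143-3p) had a value at day 7, at 45.5 and 20.2 in KO libraries and 31.3 and 21.8 in WT libraries. Of the neural markers 1 of 2 (miR-128-1-5p) had a value, at 31.9 and 20.2 in KO libraries and 8.84 and 24.5 in WT libraries (log2 0.74, overlapping). None of the blood, endothelial and muscle markers in the table (2 of each) had a value at day 7. All values are normalised read counts, and differences are of log2(value + 1), KO minus WT.

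The mature sequences that carry the comparison are those of the miR-34 and miR-449 families, in which some members were lower in KO cultures and others were not, and of the miR-125 seed family, whose members differed in direction. They are from RefSeq on GRCm38.p6, and capitals mark the seed. No mature sequence was available for miR-34c-5p, which also had lower values in KO cultures (log2 -0.94) without passing the test. The sequences printed therefore do not show how seed and direction go together in the miR-34 and miR-449 families. miR-34b-3p and miR-34c-3p share the seed AUCACUA and lie on the minus strand of chromosome 9, at 51103574 to 51103595 and 51103044 to 51103065.
miR-34b-3p: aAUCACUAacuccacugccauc
miR-34c-3p: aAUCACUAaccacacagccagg
miR-34a-5p (chromosome 4, 150068473 to 150068494), miR-449a-5p and miR-449c-5p (both in an intron of Cdc20b on chromosome 13, at 113037549 to 113037570 and 113036008 to 113036028) share the seed GGCAGUG.
miR-34a-5p: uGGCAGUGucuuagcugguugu
miR-449a-5p: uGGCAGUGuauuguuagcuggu
miR-449c-5p: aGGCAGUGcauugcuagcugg
miR-125a-5p (chromosome 17, 17830817 to 17830840) and miR-351-5p (chromosome X, 53053315 to 53053338, minus strand) share the seed CCCUGAG.
miR-125a-5p: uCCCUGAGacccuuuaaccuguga
miR-351-5p: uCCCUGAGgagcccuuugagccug

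Of the miR-34 and miR-449 family, miR-34b-3p fell in KO cultures, both arms of its neighbour miR-34c had lower values there without passing the test, and miR-34a and miR-449 had differences near 0. miR-34b-3p had normalised read counts of 74.0 and 95.2 in the KO libraries, against 209.7 and 345 in the WT libraries, from 65 and 132 KO reads and 261 and 253 WT reads. Both KO libraries lay below both WT libraries. The log2 difference was -1.67 (SE 0.32, 95% interval -2.35 to -0.99, limma adjusted p = 0.0337 by Benjamini-Hochberg over the 321). Across all 321, 2 small RNAs passed this test, which is 0.623%, both lower in KO, and none (0%) passed as higher. In bulk cultures, fewer cells of a type and less RNA per cell cannot be told apart.

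miR-34c-5p, the arm with more reads from the neighbouring hairpin (chromosome 9, 51103076 to 51103098), had 1139.6 and 1304 in KO libraries and 2056 and 2674 in WT libraries. The groups did not overlap, with a log2 difference of -0.94 (SE 0.26, limma adjusted p = 0.178), which did not pass. miR-34c-3p, the other arm, had 35.3 and 23.8 in KO libraries and 58.6 and 100.9 in WT libraries, again without overlap (log2 -1.38, SE 0.43, limma adjusted p = 0.402). Among 42 groups of miRNAs lying within 10 kb on 1 strand, some of them only the arms of 1 hairpin, 17 had all measured members below 0. In 6 groups all were above 0. These 2 counts are for the values as deposited and were not repeated under other scalings. The signs of miRNAs depend on the scaling, with 71 of 180 above 0 here and 99 with library totals. The miR-34b and miR-34c group on chromosome 9 was among the 17, at -1.67 to -0.94.

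miR-34a-5p had 43.3 and 41.1 in KO libraries and 45.0 and 46.4 in WT libraries, without overlap but with a log2 difference of -0.11 (SE 0.48). miR-449a-5p had 4969 and 4671 in KO libraries and 5153 and 4264 in WT libraries and overlapped (log2 0.04, SE 0.58, 95% interval -1.21 to 1.29). miR-449c-5p had 14987 and 8617 in KO libraries and 11914 and 11145 in WT libraries, so that the KO libraries lay on either side of WT (log2 -0.02, SE 0.39, 95% interval -0.86 to 0.82). A predicted miRNA inside the annotated Mir449b hairpin (chromosome 13, 113037468 to 113037488) had 22.8 and 15.9 in KO libraries and 16.1 and 34.1 in WT libraries (log2 -0.29, SE 0.82). The signs of these 4 small differences depend on the scaling or on single libraries. The table lists 10 family members, and 7 of them had a value at day 7. Of these, 1 passed as lower and none as higher, where 2 of all 321 passed (0.623%). Their median log2 difference was -0.29, beside -0.02 over all 321. Leaving out 1 library, this median was -0.54 without KO replicate 2, -0.08 without KO replicate 3, -0.81 without WT replicate 2 and -0.10 without WT replicate 3.

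**Figure D1:**
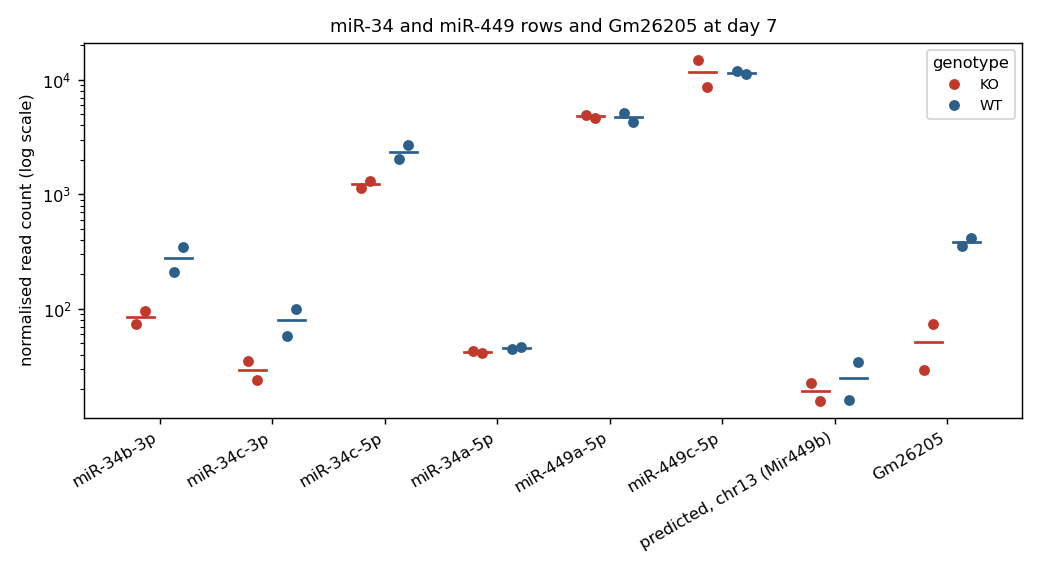
Normalised read counts at day 7 on a log axis for the 7 measured members of the miR-34 and miR-449 families and for the snoRNA Gm26205, with KO left of WT; each point is 1 library and each bar the mean of 2. miR-34b-3p, both arms of miR-34c, Gm26205 and, by a small margin, miR-34a-5p show both KO libraries below both WT libraries, while miR-449a-5p, at 4969 and 4671 in KO and 5153 and 4264 in WT, overlaps.

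The other small RNA that passed was Gm26205, annotated as a snoRNA on chromosome 5 (mm10, 121205010 to 121205143, plus strand). Gm26205 lies within Rpl6, the gene of a large-subunit ribosomal protein, and overlaps an exon of a non-coding transcript of that gene. It is printed in DNA letters from the GENCODE transcript because it had the lowest log2 difference of the 321. Capitals mark the letters ACA followed by 3 bases at the 3′ end, the place of the box in H/ACA snoRNAs, which guide pseudouridylation.
Gm26205: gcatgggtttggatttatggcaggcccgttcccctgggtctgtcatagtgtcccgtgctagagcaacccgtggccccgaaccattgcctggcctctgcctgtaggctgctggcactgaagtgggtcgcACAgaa
Of 104 measured snoRNAs with a sequence, 9 (8.7%) held ACA at that place and had no TGATGA starting in their first 15 bases, read on the RNA's own strand. Gm26205 had 29.6 and 74.3 in the KO libraries, against 354 and 416 in the WT libraries, from 26 and 103 KO reads and 441 and 305 WT reads. The groups did not overlap, and in proportion to their level the KO libraries differed from each other more than the WT libraries did. The log2 difference was -3.0 (SE 0.64, 95% interval -4.37 to -1.64, limma adjusted p = 0.0487). The log2 differences of the 9 ranged from -3.0 to 0.69 with a median of 0.49.

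Leaving out 1 library at a time, miR-34b-3p remained at log2 -2.03 to -1.31 and passed in 1 of 4 fits, without WT replicate 2, while Gm26205 remained at -3.65 to -2.35 and passed in none (limma adjusted p 0.0513 to 0.633). With library totals as the scaling neither passed (limma adjusted p = 0.0639 for miR-34b-3p and 0.0689 for Gm26205).

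In the authors' deposited table of comparisons, 2 of 462 small RNAs with an adjusted p at day 7 were under 0.05, and they were Gm26205 (log2 fold change -2.62, adjusted p = 9.31e-09) and miR-34b-3p (-1.57, adjusted p = 0.00418). For miR-34c-5p the authors' deposited table gives -0.91 with an adjusted p of 0.12, and for miR-351-5p 1.5 with 0.11.

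**Figure D2:**
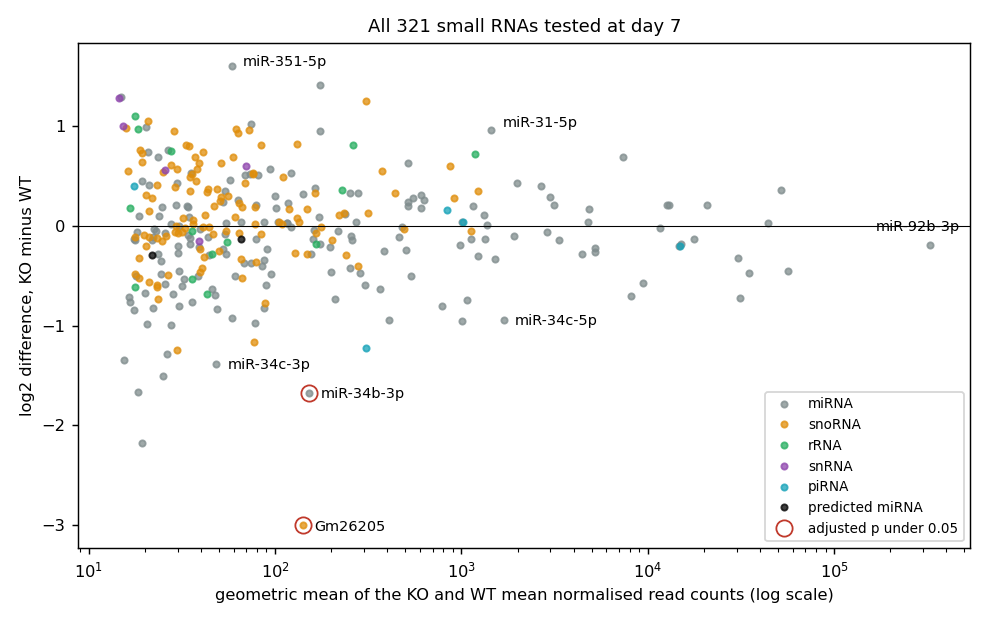
Log2 difference, KO minus WT, against the geometric mean of the KO and WT mean normalised read counts (log axis) for the 321 small RNAs at day 7, coloured by RNA class, with circles on those at an adjusted p under 0.05. The 2 circled points are Gm26205 at -3.0 and miR-34b-3p at -1.67, and 209 of the 321 points lie within 0.5 of 0.

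Of 321, 154 were above 0 and 167 below (204 and 117 with library totals as the scaling), 8 were above 1 and 11 below -1. KO and WT libraries did not overlap for 141 of the 321 (43.9%), 71 higher in KO (22.1%) and 70 lower (21.8%). At an unadjusted p under 0.05, 16 (4.98%) differed in limma, 8 in each direction (2.49% each). The small RNAs described next are those with the smallest p among the non-overlapping ones. Apart from miR-34b-3p and Gm26205 none passed, with limma adjusted p of 0.154 to 0.756, so they are given as values.

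On the higher side, miR-351-5p, a rodent member of the miR-125 seed family, had 143 and 69.95 in KO libraries and 34.5 and 30 in WT libraries (log2 1.61, SE 0.41, limma adjusted p = 0.154). This was the highest log2 difference of the 321. miR-125b-1-3p, from an intron of 3110039I08Rik on chromosome 9 (41581980 to 41582001), had 131 and 82.9 in KO libraries and 53.02 and 49.1 in WT libraries (log2 1.02, SE 0.34). The other arm of its hairpin, miR-125b-5p, which another locus also encodes, had 100.2 and 24.5 in KO libraries and 107.6 and 90.0 in WT libraries. KO replicate 2 lay within the WT range there and KO replicate 3 below it. miR-125a-5p, which had the highest values of this seed, was at 59918 and 37405 in KO libraries and 64954 and 64644 in WT libraries (log2 -0.45). Of the 6 measured miR-125 and miR-351 products 3 were above 0 and 3 below, and none passed. With a replicate block within genotype 2 of them did, miR-125b-1-3p together with miR-351-5p (limma adjusted p = 0.046 and 0.0498). For each, this was the only 1 of 17 alternative settings, not counting those that left out a library, in which it passed.

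miR-31-5p, a miRNA of stratified epithelia, had 2424 and 1615 in KO libraries and 1269 and 811 in WT libraries, without overlap (log2 0.96, SE 0.35, limma adjusted p = 0.586). miR-181c-5p had 264 and 217 in KO libraries and 141 and 108 in WT libraries (log2 0.95), and miR-181d-5p from the same locus differed by 0.57. Among snoRNAs, Snord49a had 848 and 1303 in KO libraries and 639 and 751 in WT libraries (log2 0.60). Gm24101 had 76.3 and 98.1 in KO libraries and 38.6 and 49.1 in WT libraries (log2 0.97), and Gm26224, within Gas5, had 42.1 and 38.2 in KO libraries and 23.3 and 17.7 in WT libraries (log2 0.95). Rnu12, the U12 RNA of the minor spliceosome, had 13.7 and 35.3 in KO libraries and 10.4 and 6.82 in WT libraries (log2 1.29). Gm25164, a 5S-like ribosomal RNA, had 26.2 and 26.7 in KO libraries and 14.5 and 9.54 in WT libraries (log2 1.10). Its reads may be shared with near-identical 5S copies.

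On the lower side, after the miR-34 products, miR-671-5p, known for directing cleavage of the circular RNA Cdr1as, had 19.4 and 3.61 in KO libraries and 33.7 and 25.9 in WT libraries (log2 -1.66, SE 0.63, limma adjusted p = 0.642). These are 17 and 5 KO reads and 42 and 19 WT reads. Its opposite arm, miR-671-3p, had 140.02 and 151 in KO libraries and 86.0 and 117 in WT libraries (log2 0.53). The 5p difference was -0.59 without KO replicate 3 and -2.73 without KO replicate 2. Of 37 hairpins with both arms measured 18 had both arms below 0, 5 both above and 14 arms of opposite sign, against 12, 8 and 17 with library totals. miR-324-5p had 51.2 and 34.6 in KO libraries and 77.9 and 83.2 in WT libraries (log2 -0.92). miR-672-5p, from an intron of Nexmif on chromosome X, had 927 and 741 in KO libraries and 1312 and 1471 in WT libraries (log2 -0.74). miR-326-3p, from an intron of Arrb1, had 41.0 and 31.7 in KO libraries and 67.5 and 62.7 in WT libraries (log2 -0.83). let-7b-5p had 7302 and 5449 in KO libraries and 10060 and 10509.7 in WT libraries (log2 -0.70). These 4 miRNAs were lower in both KO libraries than in both WT libraries and did not pass.

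The epithelial miR-200 family, which represses Zeb1 and Zeb2, had log2 differences below 0 in all 8 measured of 9 members, and in 6 of 8 with library totals or factors from miRNAs as the scaling. miR-200a-3p had 685 and 503 in KO libraries and 1264 and 826 in WT libraries (log2 -0.80, SE 0.37, limma adjusted p = 0.756). miR-200b-3p, the most abundant member, had 9515 and 6103 in KO libraries and 12398 and 10327 in WT libraries (log2 -0.57). The median was -0.40 (-0.26 with library totals, -0.63 without KO replicate 2 and -0.23 without KO replicate 3). In 4 of the 8 both KO libraries lay below both WT libraries, beside 21.8% of all 321 small RNAs, and none of the family passed. miR-200a-5p, at -0.08, and miR-429-3p, at -0.14, were the members that moved above 0 with library totals, to 0.07 and 0.01. miR-141 and miR-200c, from the second cluster of the family, ranged from -0.76 to -0.19.

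The miR-10, miR-99 and miR-100 family, encoded largely beside Hox genes and let-7 genes, had a median of -0.62 over 6 of 8, with -0.26 without KO replicate 3 and -0.90 without KO replicate 2. miR-10a-5p had 28934 and 30225 in KO libraries and 36847 and 45268 in WT libraries (log2 -0.47), and miR-10a-3p had 17.1 and 21.6 in KO libraries and 41.8 and 36.8 in WT libraries (log2 -0.99). miR-99b-5p had 37084 and 14495 in KO libraries and 38568 and 37687 in WT libraries, so KO replicate 2 was near WT and KO replicate 3 far below it. None of the 6 passed.

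The list of basal and stratified epithelium miRNAs had a median of 0.59 over 4 of 10. Without WT replicate 3 it was 0.06, and without KO replicate 2 it was 0.34. Its members differed in direction. miR-31-5p is given above, miR-205-5p differed by 0.21 with overlapping libraries, miR-203-3p by 0.99 at 34.2 and 20.2 in KO libraries and 23.3 and 6.82 in WT libraries, and miR-224-5p by -0.50. The miR-183 cluster, known from sensory and ciliated cells, lay within -0.28 to -0.20 for all 4 measured of 5, with every library range overlapping. Its median of -0.25 was -0.40 without KO replicate 2, -0.11 without KO replicate 3, 0.03 without WT replicate 2 and -0.54 without WT replicate 3. miR-182-5p, its most abundant member, had 12064 and 15492 in KO libraries and 13862 and 17766 in WT libraries.

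Among further lists, the miR-30 family had 7 of 9 members above 0 (8 with library totals; median 0.19), and let-7 and miR-98 had a median of 0.01 over 11. Leaving out 1 library, these medians stayed within 0.07 (without WT replicate 3) to 0.20 and within -0.17 (without WT replicate 2) to 0.10 (without WT replicate 3). miR-210-3p, the hypoxia-induced miRNA, had 460 and 164 in KO libraries and 637 and 436 in WT libraries (log2 -0.94), overlapping, while its 5p arm differed by 0.03. Its 3p difference was -1.68 without KO replicate 2 and -0.20 without KO replicate 3. The secretory and neuroendocrine miR-375-3p had 4529 and 4873 in KO libraries and 4290 and 7357 in WT libraries (log2 -0.26). The p53 family target list had 1 of 11 members pass, miR-34b-3p again, beside 2 of all 321 (0.623%). Its median was -0.33 (-0.18 without KO replicate 3, -0.21 without WT replicate 2 and -0.50 without KO replicate 2). This list shares the miR-34, miR-141 and miR-200c products with the lists above. Of the inflammation list, miR-146a-5p had 666 in KO replicate 2 but 69.95 in KO replicate 3, against 96.4 and 66.8 in the WT libraries (log2 1.42, limma adjusted p = 0.828). Among the lists, a miRNA passed in the 2 that hold miR-34b-3p and in no other.

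**Figure D3:**
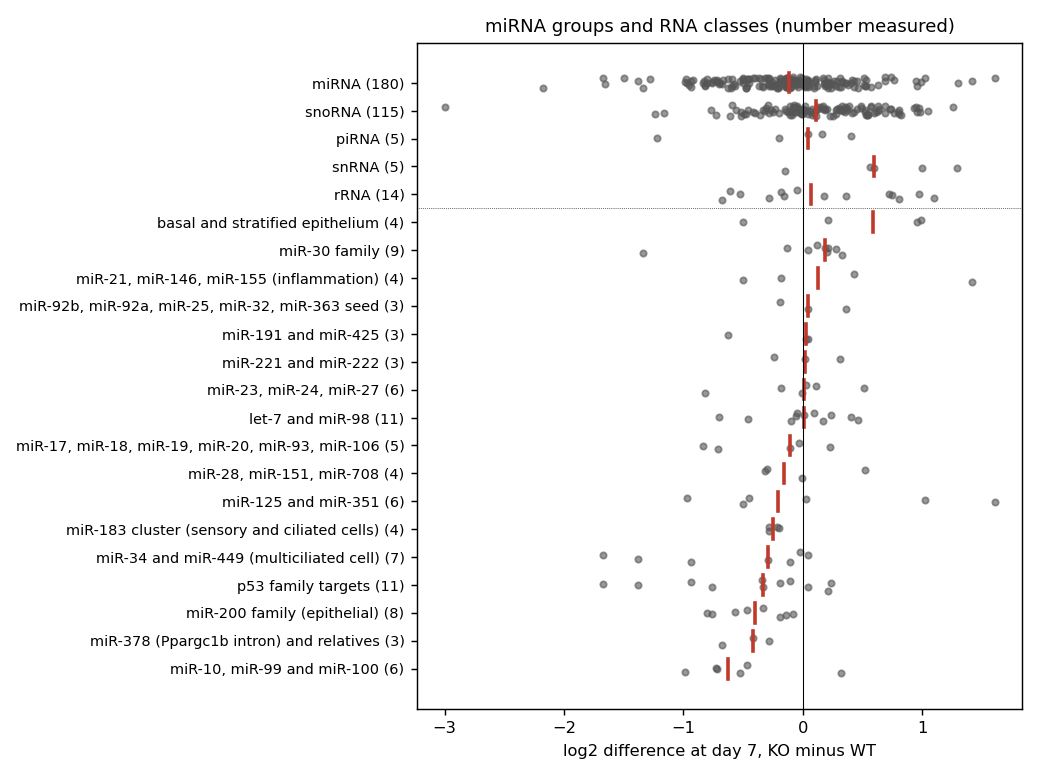
Log2 differences at day 7, KO minus WT, of every measured member of the miRNA lists with 3 or more members and of the RNA classes; each grey point is 1 small RNA, each red bar a median, and the number measured stands in brackets. The miR-200 family lies below 0 in all 8 members with a median of -0.40 (in 6 of 8 with library totals), the miR-34 and miR-449 family runs from -1.67 to 0.04, and miRNAs and snoRNAs have medians of -0.12 and 0.11.

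The most abundant small RNA was miR-92b-3p, which shares the seed AUUGCAC with miR-92a-3p and miR-25-3p. It held 37.41% and 40.74% of the summed values of the KO libraries and 37.08% and 43.8% of the WT libraries. Its values were 301410 and 304276 in KO libraries and 296733 and 404628 in WT libraries (log2 -0.19), with overlap. miR-92a-3p had 55256 and 62444 in KO libraries and 43482 and 47896 in WT libraries, higher in both KO libraries (log2 0.36, SE 0.30, limma adjusted p = 0.845). miR-191-5p had 43319 and 45377 in KO libraries and 46546 and 40412 in WT libraries (log2 0.03).

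By class, miRNAs made up 96.4% and 95.1% of the summed values of KO libraries and 96.4% and 96.1% of WT libraries. snoRNAs held 1.51% and 2.04% in KO libraries and 1.41% and 1.43% in WT libraries, and ribosomal RNAs 0.284% and 0.388% in KO libraries and 0.214% and 0.207% in WT libraries. Both shares were higher in both KO libraries, KO replicate 3 most, with a two-sided exact permutation p of 0.333, the smallest that 2 against 2 allows. The shares rest on totals of which miR-92b-3p alone held 37.08% to 43.8%. The summed snoRNA values themselves overlapped, at 12100 and 15300 in KO libraries and 11300 and 13200 in WT libraries. Those of ribosomal RNAs did not, at 2280 and 2900 in KO libraries and 1710 and 1910 in WT libraries. Among snoRNAs 69 of 115 were above 0, with a median of 0.11, and the libraries did not overlap for 34 as higher and 18 as lower. Among miRNAs 71 of 180 were above 0, with a median of -0.12, and 27 were non-overlapping as higher and 49 as lower. Over all 321 small RNAs, 71 were non-overlapping as higher (22.1%) and 70 as lower (21.8%). With library totals 89 of 115 snoRNAs and 99 of 180 miRNAs were above 0. With library totals or with factors from miRNAs as the scaling, the median over all 321 moved to 0.13 and that of the miRNAs to 0.03. The sign of the miRNA median therefore depends on the scaling. That of the snoRNAs was 0.26 and 0.27 under those scalings. Leaving out 1 library, it was 0.28 without KO replicate 2, 0.05 without KO replicate 3, 0 without WT replicate 2 and 0.21 without WT replicate 3, and the median of the miRNAs was -0.21, -0.04, -0.11 and -0.16 in the same order.

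snoRNAs of 1 host gene were set side by side, since they are processed from the same transcript. Of 22 host genes with 2 or more measured snoRNAs, 9 had all above 0, 1 (Taf1d) all below and 12 were mixed, whereas with library totals 13 had all above 0, none all below and 9 were mixed. Gas5, a long non-coding snoRNA host, had 7 measured products from -0.07 to 0.96. Snhg1, another such host, had 8 from -0.28 to 0.49. Zfas1 had 2, at 0.45 and 0.55, and Nop56, whose protein is part of the C/D snoRNA particle, had 3 from 0.13 to 0.43. Within 1110038B12Rik, Gm24101 at 0.97 stood beside Gm25744 at -0.20, and whether these 2 products differ was not tested. Apart from Gm26205 no snoRNA passed.

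**Figure D4:**
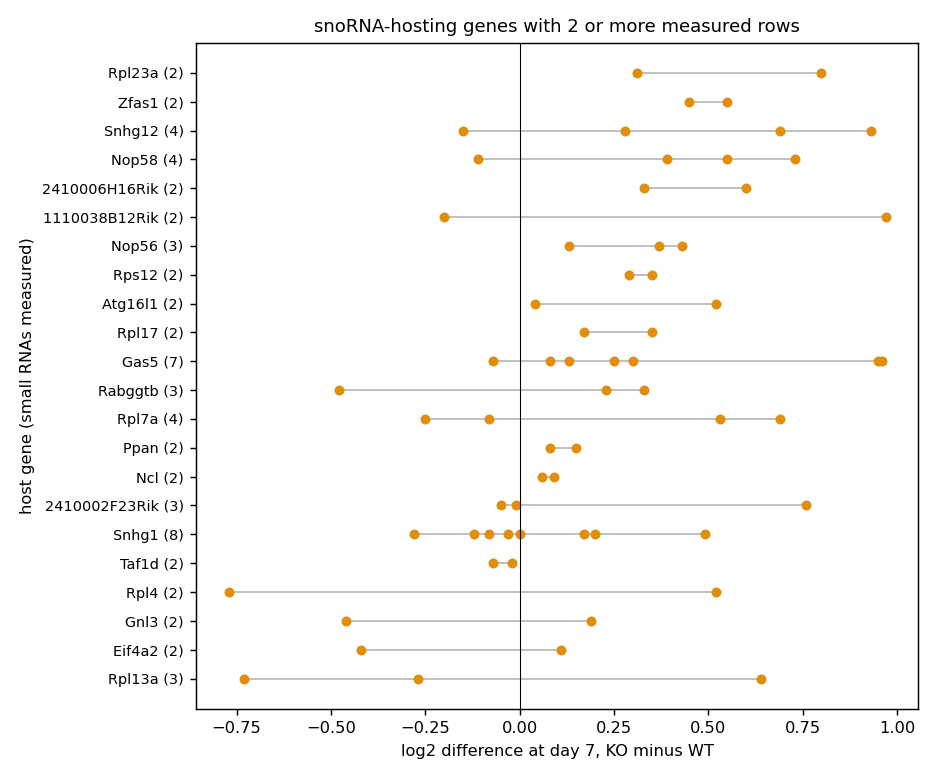
Log2 differences at day 7, KO minus WT, of snoRNAs grouped by the annotated host gene, for the 22 host genes with 2 or more measured; points are snoRNAs and grey lines span their range. In 9 host genes all points lie above 0 and in 1 all lie below (13 and 0 with library totals), and Gas5 spans -0.07 to 0.96.

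Most of the 14 ribosomal RNAs were copies of the 5S gene, whose near-identical sequences make single values uncertain. n-R5s2, the most abundant, had 1322 and 1695 in KO libraries and 815 and 1016 in WT libraries (log2 0.72, limma adjusted p = 0.774), and n-R5s209 had 279 and 422 in KO libraries and 161 and 236 in WT libraries (log2 0.81). n-R5-8s1, which is not a 5S copy (annotated at 148 bases, against 119 for n-R5s2), had lower values in KO cultures. It was at 33.0 and 34.6 in KO libraries and 54.6 and 54.5 in WT libraries (log2 -0.68). The median of the 14 was 0.07, with 0.32 without KO replicate 2, 0.31 without WT replicate 2 and 0 without WT replicate 3. Of 5 small nuclear RNAs 4 were above 0, with a median of 0.60 (1.07 without KO replicate 2). Their summed values were 143 and 264 in KO libraries and 129 and 143 in WT libraries. KO replicate 2 was thus at the level of WT replicate 3, and KO replicate 3 carried the rise. None of the 5 passed.

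Of 5 piRNAs 2 followed a miRNA almost read for read. DQ562379 exceeded miR-182-5p by 0.52% to 0.92% in reads in each day 7 library, and DQ695413 exceeded miR-25-3p by 0% to 0.18%. These 2 held 91.8% and 94.2% of the piRNA values in KO libraries and 92.9% and 93.0% in WT libraries, and no source used here says how reads were assigned to names. Of the remaining 3, DQ726397 had 209.5 and 187 in KO libraries and 356 and 599 in WT libraries, without overlap (log2 -1.22, SE 0.64, limma adjusted p = 0.756).

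The day 7 differences were then set beside those of the other days, which come from other libraries. For miR-34b-3p the differences at days 0, 4, 7 and 14 were 0.03, -1.02, -1.67 and -1.81, passing at day 7 and at day 14 (limma adjusted p = 0.00686). miR-34c-5p differed by 0.10, -0.32, -0.94 and -1.63 on the same days and passed at day 14 (limma adjusted p = 0.00396). miR-34c-3p differed by -0.12, 0.14, -1.38 and -2.34 and also passed at day 14 (limma adjusted p = 0.00784). At day 14 miR-34c-5p had 1112 and 1227 in KO libraries, near its day 7 KO values, against 4000 and 3288 in WT libraries, where the deposited values of each day were scaled separately.

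miR-351-5p differed by 0.78, 0.90, 1.61 and 1.62 from day 0 to day 14, and miR-125b-1-3p by 0.80, 0.72, 1.02 and 1.55. Both were higher in both KO libraries at each day and passed at day 14 (limma adjusted p = 0.0417 and 0.0274). miR-31-5p differed by 0.73, 0.47, 0.96 and 1.01 and passed at none. miR-672-5p differed by -0.72, -1.0, -0.74 and -0.35.

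Gm26205 had 5.91 and 15.7 in KO libraries and 10.2 and 10.9 in WT libraries at day 0, and 23.8 and 50.8 in KO libraries and 11.6 and 52.7 in WT libraries at day 4. At day 14 it had 15.95 and 28.6 in KO libraries and 32.3 and 37.2 in WT libraries. The WT values of 354 and 416 at day 7 were thus above those of every other day as deposited, while the KO values of 29.6 and 74.3 were of the order of the other days.

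Whether the day 7 difference itself departed from that of other days was tested in the same limma fit. Against the mean of days 0, 4 and 14, 0 of 272 small RNAs passed (0%), with 5 at an unadjusted p under 0.05 (1.84%), and with an additive replicate block 1 passed, Gm26205 (limma adjusted p = 0.026). Gm26205 had the smallest p, with a difference of differences of -2.90 (SE 0.74, limma adjusted p = 0.417). Against day 0, day 4 and day 14 singly, 0 of 273, 288 and 293 passed, with 16 (5.86%), 8 (2.78%) and 4 (1.37%) at an unadjusted p under 0.05. For miR-34b-3p the difference of differences was -1.70 (SE 0.44) against day 0, -0.65 (SE 0.44) against day 4 and 0.14 (SE 0.45) against day 14, with limma adjusted p of 0.259, 0.997 and 0.995. Over the days, 0 of 342 small RNAs passed at day 0, 1 of 340 at day 4 (0.294%), 2 of 321 at day 7 and 12 of 304 at day 14 (3.95%).

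**Figure D5:**
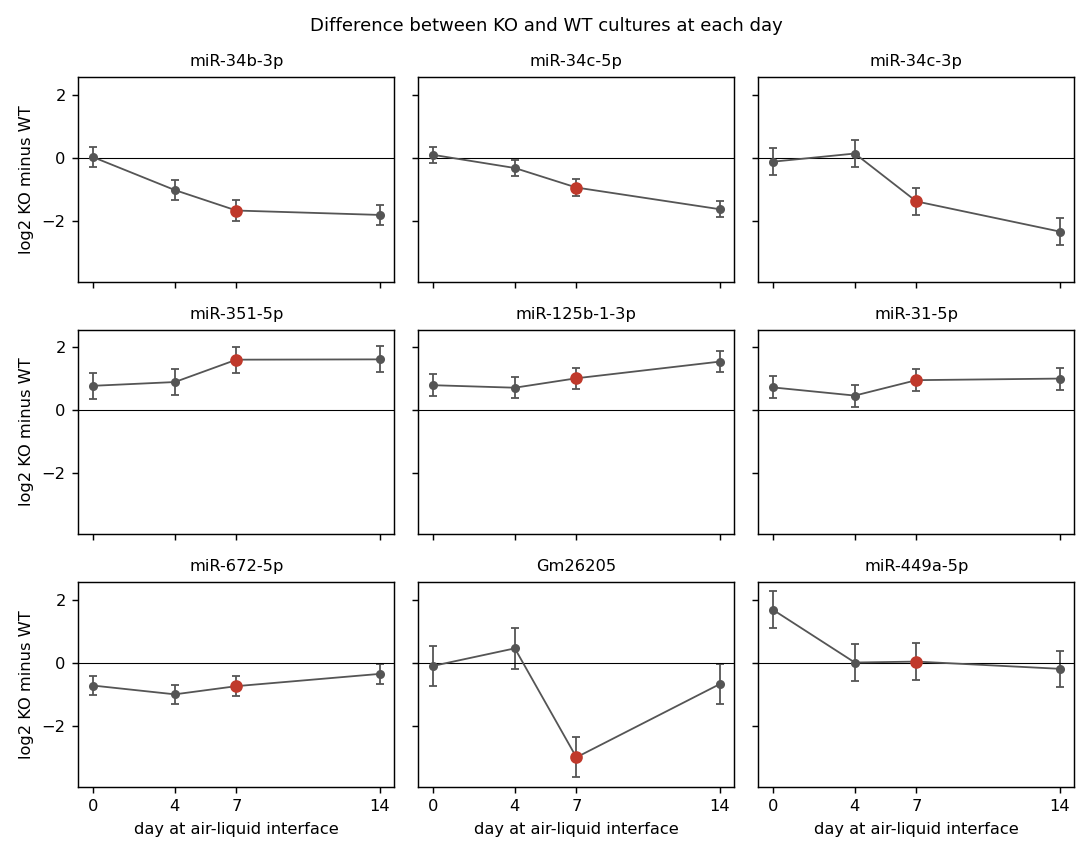
Log2 difference, KO minus WT, at days 0, 4, 7 and 14 for 9 small RNAs, with bars of 1 standard error from the limma fit and day 7 in red. miR-34b-3p runs 0.03, -1.02, -1.67 and -1.81, Gm26205 reaches -3.0 at day 7 and is at -0.67 on day 14, and miR-449a-5p is at 0.04 on day 7.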

How the data were processed

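Small RNA was measured in 16 libraries of mouse tracheal epithelial cultures, 2 for each genotype and day, which the labels call independent biological replicates. Per the labels' protocols, RNA came from an RNeasy column and libraries from a TruSeq RNA kit. mm10 and DESeq2 are named in the submitters' processing notes. The read aligner, the annotation and the way reads were counted were not given in any source used. The authors' deposited values are headed as read counts but are a normalised signal, scaled within each day, so edgeR on the deposited values was not used. Each library's values were whole multiples of what 1 read is worth, found by a search between 0.3 and 2.2 (tolerance 0.0055), and 100.0% of values came out whole. At day 7 low small RNAs are blank, so totals cover the listed ones. Reads were amplified without molecular identifiers, so counts are not molecules. Per the file headers, the authors' second table holds log2 fold changes and adjusted p-values for KO against WT, deposited as they made them.

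The table listed 1269 small RNAs, of which 5 predicted ones with the values of a named miRNA were left out. All 321 with day 7 values reached 10 or more in 2 or more libraries. limma 3.58.1 in R 4.3.3 was fitted to log2(value + 1) with a variance trend, all 16 libraries in 8 groups and no covariate, with Benjamini-Hochberg adjustment over the small RNAs tested and a threshold of 0.05. "Passed" means an adjusted p under this threshold. The pseudocount understates changes of low small RNAs. Alternatives were other pseudocounts, filters, scalings, variance priors and blocks, leaving out each library, edgeR 4.0.16, DESeq2 1.42.0 and limma-voom on recovered reads.

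Named small RNAs were those that passed here or in the deposited table, the 10 smallest p in each direction among those whose libraries did not overlap, every miR-34 and miR-449 product, the 5 highest means, and the highest member and smallest p of each list. Others named (miR-125b-5p, miR-671-3p, miR-181d-5p, miR-203-3p, miR-224-5p, miR-99b-5p, miR-146a-5p, further members of the lists, other snoRNAs and ribosomal RNAs, and piRNAs) were chosen after their values were seen. The members and lists were chosen with earlier results of these data known. Mature miRNA sequences from RefSeq matched 40 of 47 named miRNAs, and positions are mm10 (GRCm38), counted from 1. Annotation and sequences of other small RNAs are from GENCODE. Class shares were compared with an exact permutation test in SciPy 1.17.1. One further snoRNA host gene and its products are not reported here.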

Additional observations from a re-analysis of the deposited data

How the results depend on the processing

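Without the filter on low values the fit was the same, since the filter removed none of the 321. The count of 2 small RNAs that passed at day 7 was the same at an adjusted p under 0.1 and with a pseudocount of 10. The count stayed at 2 with a minimum of 50, with TMM factors and with an additive replicate block in all 16 libraries. It was 1 with a pseudocount of 0.5, with robust shrinkage (miR-34b-3p both times) and in limma-voom (Gm26205), 3 in DESeq2 (adding DQ726397), and 0 with library totals, upper-quartile factors, factors from miRNAs, no variance trend, the day 7 libraries alone, the replicate block in those alone, and edgeR, where 35 were under an unadjusted p of 0.05. Leaving out 1 library it ranged from 0 to 1. In those fits the lone library of a group is assumed to vary like the other groups. Replicate numbers were only weakly shared (r = 0.129 between the differences of replicate 3 and replicate 2 in KO and WT). A replicate block within genotype gave 6, adding miR-351-5p, miR-146a-5p, miR-1964-3p and miR-125b-1-3p. With the additive replicate block, 1 small RNA passed in the test against days 0, 4 and 14 together and 1 against day 4, Gm26205 both times (limma adjusted p = 0.026 and 0.0339). The median of the miR-10, miR-99 and miR-100 family was -0.22, that of the miR-30 family -0.07 and that of the snoRNAs 0.05 with the block within genotype. Across these settings the log2 difference of miR-34b-3p stayed within -2.03 to -1.31 and that of Gm26205 within -3.65 to -2.35. The cause of the changes in count was not tested.

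Of 55 named small RNAs, 40 kept their sign under every alternative, and no sign change concerned one that passed. With library totals, miR-34a-5p became 0.03, miR-449c-5p 0.13, miR-93-5p 0.03, miR-15b-5p 0.05 and miR-30d-5p 0.01. With factors from miRNAs these were 0.04, 0.13, 0.04, 0.06 and 0.02. miR-449c-5p was 0.04 with upper-quartile factors, 0.02 in edgeR and 0.04 in DESeq2. With the replicate block within genotype, miR-449a-5p was -0.36, miR-125a-5p 0.01, miR-191-5p -0.01 and miR-375-3p 0.02. Leaving out 1 library, the lowest and highest log2 differences were -0.36 and 0.78 for miR-143-3p, -0.36 and 0.16 for miR-15b-5p, -0.65 and 0.08 for miR-183-3p, -0.07 and 0.13 for miR-191-5p, -0.04 and 0.46 for miR-205-5p, -0.40 and 0.04 for miR-27b-3p, -0.32 and 0.06 for miR-30d-5p, -0.65 and 0.13 for miR-375-3p, -0.10 and 0.18 for miR-449a-5p, -0.42 and 0.38 for miR-449c-5p, -0.42 and 0.03 for miR-92b-3p, -0.30 and 0.07 for miR-93-5p and -0.81 and 0.23 for the predicted miRNA on chromosome 13. Depth limits the small RNAs with few reads, such as miR-671-5p with 17 and 5 KO reads and 42 and 19 WT reads.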
